A study of Crocodylus porosus with 60 samples.

Results

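miR-122-5p is the crocodile form of miR-122, the microRNA that dominates the small RNA of vertebrate liver. It is 1 row of the 654 in a table of miRNA levels from hatchling saltwater crocodiles (Crocodylus porosus), chosen by its name, cPor-miR-122-5p, and it is the only row named for that family. The study catalogued miRNAs over tissues by sequencing small RNA from flash-frozen organs. The 60 deposited samples carry 15 library names, with 4 samples to a name, and the table gives 1 value column per name, so the 4 samples could not be compared with each other. Liver, small intestine, stomach, tongue, cloaca, spleen and jaw skin have 1 library each, heart and brain have 2 each, and testis has 4.

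All animals were untreated and were raised under the same conditions. The column headers split testis, heart and brain between runts and normal hatchlings. Per the labels, runts were 359 days old and 386.2 ± 23.6 mm (SD) in size, and normal hatchlings were 373 days old and 740.2 ± 73.5 mm. Runt size and age therefore differ together and cannot be told apart. The headers give 2 runt and 2 normal testis libraries, numbered 1 and 2 below in their order in the table, and 1 runt and 1 normal library each for heart and brain. The size class of the animal behind the liver library and the other single libraries is not given. The cloaca column is headed cloacal gland, so it may hold the gland alone. Values were taken as RPM, reads scaled to a total of 1000000 per library, and which reads that total holds is not stated. Over the libraries 1 read was worth 0.21 to 1.85 RPM. This puts the total, called depth below, at about 539976 to 4756820 reads per library. Intervals on single libraries are exact 95% Poisson intervals on the estimated reads and cover counting error only.

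In vertebrates miR-122 is made from a liver-specific precursor transcript under the control of liver-enriched transcription factors such as HNF4A, and hepatocytes are its main source. Loaded into Argonaute, it represses target mRNAs. In mice, loss of miR-122 lowers plasma cholesterol and disturbs liver lipid handling, and known targets in mammals include the glycolytic enzyme aldolase A and the amino acid transporter SLC7A1. In humans and rodents it is also measured in plasma as a marker of liver injury.

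In the crocodile liver library miR-122-5p was the most abundant of the 654 rows, at 208151 RPM (95% Poisson interval 207060 to 209247, about 139295 reads). It took 20.8% of the RPM total there (exact binomial 95% interval 20.7 to 20.9%) and 27.0% of the reads listed as miRNA. The next row in liver, miR-148-5p, which belongs to a family known to be abundant in vertebrate liver, took 18.6% of the listed reads, and the third, the unnamed miR-N444, took 16.3%. miR-26a-5p followed with 6.10% and miR-30a-5p with 4.94%. In no other library was miR-122-5p among the 30 most abundant rows.

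**Figure D1:**
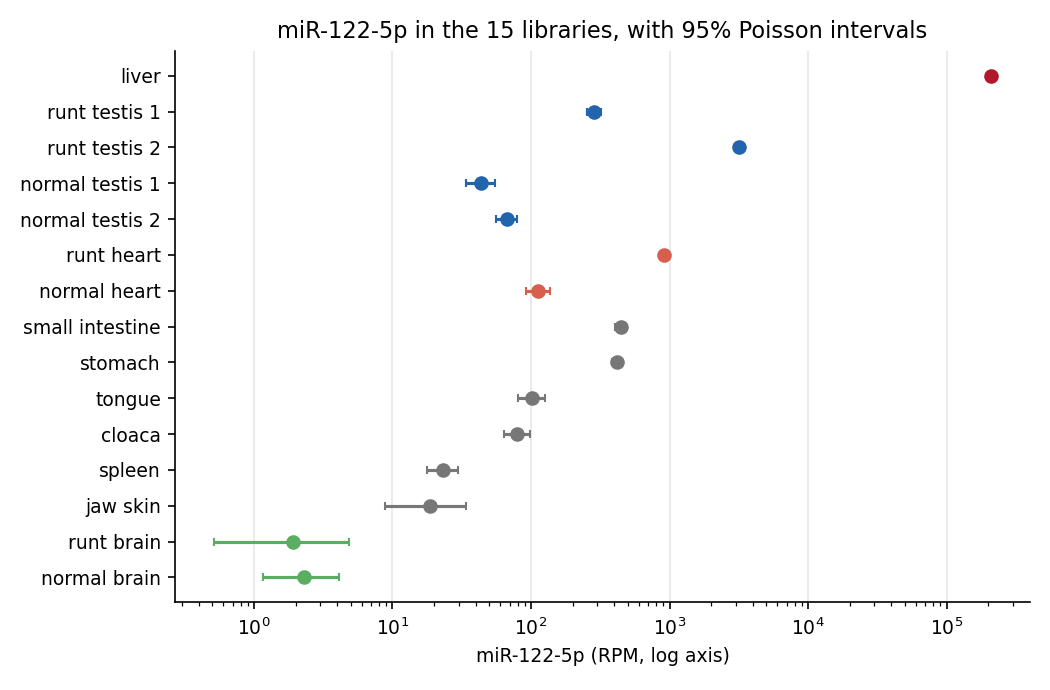
Level of miR-122-5p in RPM (log axis) in each of the 15 libraries, with exact 95% Poisson intervals on the estimated reads; tissues are in order of their mean and runts stand above normal hatchlings. Liver, at 208151 RPM, lies 66.0-fold above the highest other library, runt testis 2, and the brain libraries lie lowest, at 1.90 and 2.31 RPM.

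Outside liver the row was read in all 14 libraries, over a range of 1.90 to 3152 RPM with a median of 90.4 RPM. The testis libraries of runts had 285.9 and 3152 RPM and those of normal hatchlings 43.3 and 66.8 RPM. The runt heart library had 919.6 RPM and the normal one 112.6 RPM. The gut libraries lay close together, with 445.5 RPM in small intestine and 416.2 RPM in stomach. Tongue had 101.2 RPM, cloaca 79.5 RPM, spleen 23.1 RPM and jaw skin 18.5 RPM. The brain libraries stood far below all others, with 1.90 RPM in the runt and 2.31 RPM in the normal hatchling, which is about 4 and 11 reads.

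Rank within a library followed a partly different order. Among the 654 rows, miR-122-5p was the 31st in runt testis library 2, the 52nd in the runt heart, the 61st in small intestine and in stomach, and the 76th in runt testis library 1. It was the 82nd in the normal heart, the 95th and the 140th in the normal testis libraries, the 98th in tongue, the 103rd in cloaca, the 132nd in spleen and the 135th in jaw skin. In brain it was the 422nd in the runt and the 308th in the normal hatchling. Normal testis library 2 thus ranked ahead of tongue and cloaca, which had more RPM, and normal testis library 1 ranked behind spleen and jaw skin, which had less.

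By tissue mean the order was liver, testis, heart, small intestine, stomach, tongue, cloaca, spleen, jaw skin and brain. Testis averaged 887 ± 1514 RPM (SD, n = 4) with a median of 176.3 RPM, heart 516.1 ± 570.6 RPM (n = 2) and brain 2.10 ± 0.29 RPM (n = 2). Not all of these steps are larger than the spread. The testis range of 43.3 to 3152 RPM spans heart, small intestine, stomach, tongue and cloaca, and the heart range of 112.6 to 919.6 RPM spans both gut libraries. The counting intervals of small intestine (404.8 to 489.2 RPM) and stomach (385.1 to 449.3 RPM) overlap, as do those of tongue (80.3 to 126 RPM) and cloaca (63.4 to 98.5 RPM), and those of spleen (17.7 to 29.6 RPM) and jaw skin (8.88 to 34.1 RPM). Liver, at the top, and brain, at the bottom, did not overlap with any other tissue.

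Against the mean of the 9 other tissues (276.6 ± 307 RPM, SD over tissue means) the liver level was 753-fold higher, and against the highest other tissue mean, that of testis, 235-fold higher. A single runt testis library carried much of that mean: without it the fold was 1080, and against the median of the other tissues it was 2056. With 1 liver library the difference has no replicate check and no test. A filter on low values, 10 RPM or more in 2 or more libraries, left 319 rows, and 4 of them (1.25%) were at least 10-fold higher in liver than the mean of the other tissues. Beside miR-122-5p these were the unnamed rows miR-N67 (22.3-fold), miR-N532 (14.9-fold) and miR-N427 (10.7-fold), none of them above 167.4 RPM in liver. Rows read only in liver, which has 1 library, cannot pass this filter and are not in these counts. One row left out, miR-N336, had a larger excess than miR-122-5p, at 180.8 RPM in liver against a mean of 0.177 RPM over the other tissues, a mean that rests on about 3 reads. miR-N532 and miR-N427 are named because the count is small and were picked after their values were seen. Liver was the highest of the 10 tissues for 15 of the 319 rows (4.7%), and the median row was at 0.285 of its mean in the other tissues.

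**Figure D2:**
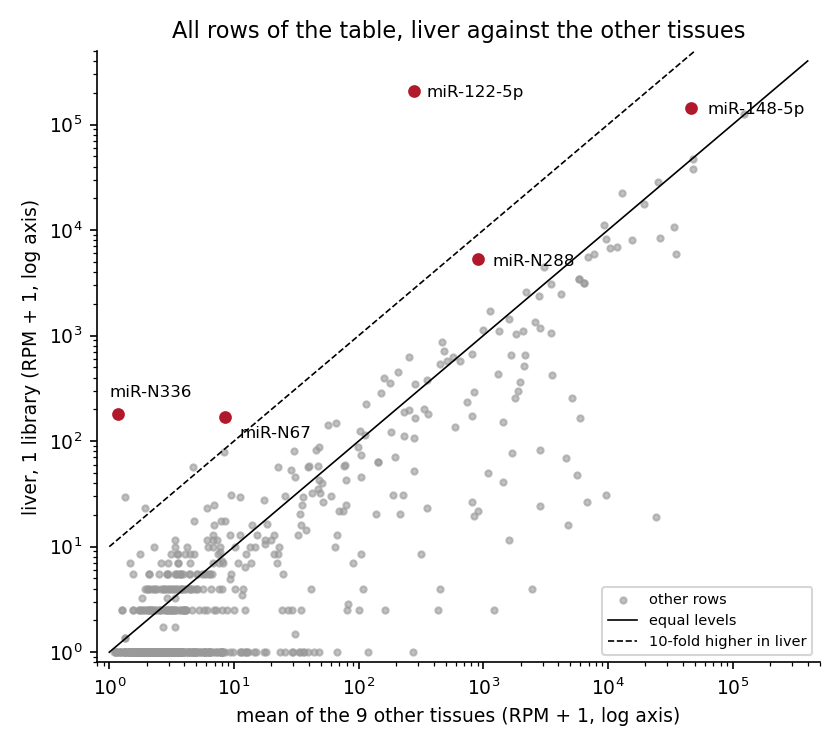
Level of each of the 654 rows in the liver library (RPM + 1, log axis) against its mean over the 9 other tissues (RPM + 1, log axis); the solid line marks equal levels and the dashed line a 10-fold higher level in liver. miR-122-5p lies highest and far above the dashed line, with 208151 RPM in liver against a mean of 276.6 RPM elsewhere, and miR-N336 and miR-N67 lie above the dashed line at much lower levels.

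Liver held 98.8% of the summed tissue means of miR-122-5p. An index of tissue restriction, tau, runs from 0 for an even row to 1 for a row found in a single tissue, and it was 0.999 for miR-122-5p against a median of 0.81 over the 319 rows. The row was the 47th by this index. Of the 46 rows ahead of it, 45 were highest in testis and 1 in brain. The filter asks for 2 libraries, so it can pass a row read only in testis or brain but not one read only in liver or another tissue with 1 library, and this order over tissues is no comparison between them. miR-N336, highest in liver with a tau of 0.99902 against 0.99867 for miR-122-5p, was left out by the filter.

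Other miRNA families known to be abundant in vertebrate liver did not share this restriction. Of 12 such families 11 matched a row, miR-192 being the exception, and 10 of those 11 rows passed the filter on low values. Of these 11 rows 2 were highest in liver, beside 15 of the 319 rows (4.7%). The median level of the 11 in liver was 0.981 of the mean in the other tissues, beside 0.285 over the 319 rows. The 319 rows can hold rows read only in testis but none read only in liver, which can lower their median and their share highest in liver. miR-33-5p, the row that did not pass the filter, is not among them. miR-148-5p had 143399 RPM in liver and 113110 RPM in stomach, its next highest tissue, with a mean of 45967 ± 35645 RPM over the other 9 tissues. miR-33-5p, from a family that in mammals lies in the introns of the SREBP genes and restrains cholesterol export, was highest in liver too, but at 8.97 RPM, about 6 reads.

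The remaining 9 rows were higher in at least 1 other tissue. miR-101-1-5p had 286.2 RPM in liver and 305.5 RPM in small intestine, and miR-365-2-5p 863.7 RPM in liver and 1089 RPM in jaw skin. miR-21-5p, a family that is widely expressed and rises in injured or inflamed tissue in mammals, had 22578 RPM in liver and 52079 RPM in small intestine. miR-194 had 647 RPM in liver and 13802 RPM in small intestine. Its cluster partner in other vertebrates, miR-215-5p, had 25.4 RPM in liver and 59669 RPM in small intestine. miR-26a-5p (47079 RPM in liver), miR-22-3p (2361 RPM) and miR-193a-3p (233.1 RPM) ranked the 6th of 10 tissues in liver, and miR-455-5p (29.9 RPM) ranked last.

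**Figure D3:**
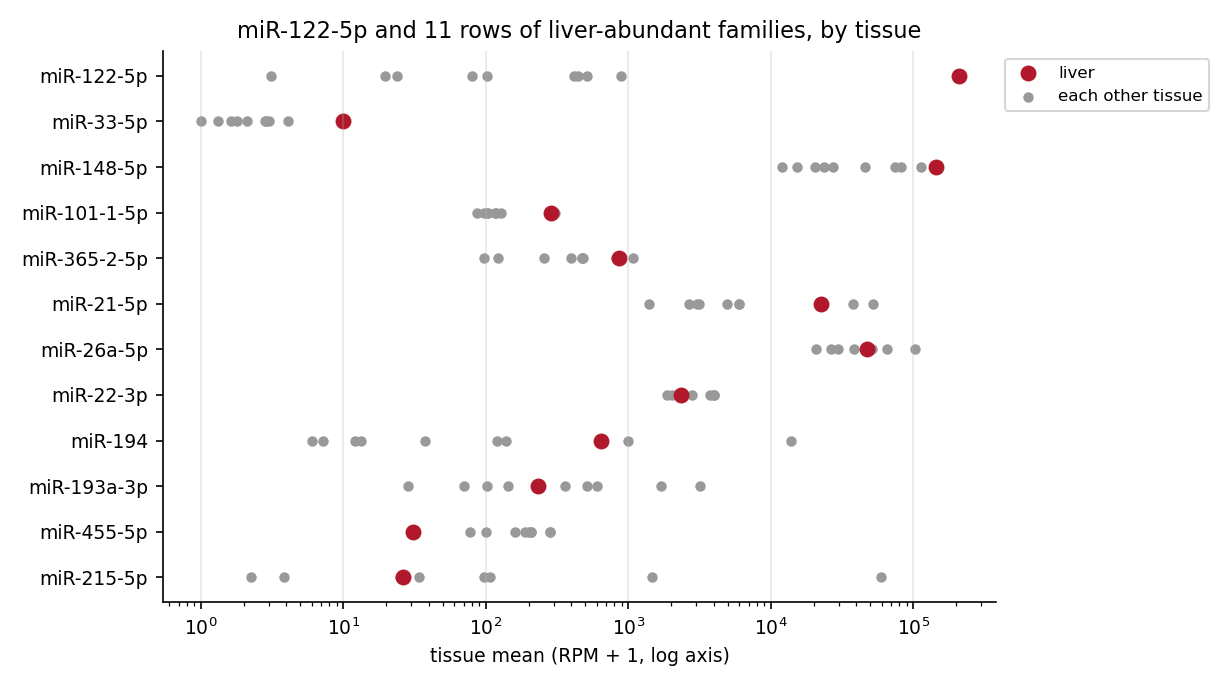
Level in liver (large red points) and tissue means in each of the 9 other tissues (small grey points) of miR-122-5p and 11 rows of families known as abundant in vertebrate liver, in RPM + 1 on a log axis. For miR-122-5p the liver point lies at 208151 RPM and the highest other tissue mean at 887 RPM, whereas for miR-148-5p stomach, at 113110 RPM, lies next to liver at 143399 RPM.

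The rows most like miR-122-5p over tissues were ranked by Pearson r of log2(mean RPM + 1) over the 10 tissues, among 318 rows. They were miR-N288 (r = 0.85), miR-N67 (0.79), miR-N440 (0.71), miR-N65 (0.69) and miR-148-5p (0.65). All points share the single liver library, which is far from the rest. Without liver, over 9 tissues, r was 0.71 for miR-N288, 0.48 for miR-N67, 0.79 for miR-N440, 0.31 for miR-N65 and 0.47 for miR-148-5p, and 2 of these 5 rows remained among the 5 most alike. miR-N288 had 5287 RPM in liver and 909 ± 481.4 RPM over the other tissues, and miR-N65 had 23.9 RPM in liver and 5.89 ± 3.61 RPM over the others (SD over 9 tissue means). miR-N440 was not highest in liver, with 1699 RPM there and 1802 RPM in tongue.

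The low levels outside liver were set beside those of the other rows that led liver, each taken as a percentage of its own liver level. miR-122-5p stood at 0.137% and 1.51% of its liver level in the runt testis libraries and 0.0208% and 0.0321% in the normal ones. In heart it stood at 0.442% in the runt and 0.0541% in the normal hatchling, in small intestine at 0.214%, in stomach at 0.200%, and in brain at 0.00091% in the runt and 0.00111% in the normal hatchling. miR-148-5p kept 8.40% or more of its liver level in each of these 14 libraries, and miR-N288 kept 1.86% or more.

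miR-N336, an unnamed row with 180.8 RPM in liver and no more than 1.27 RPM in any other library, was the only one of the other 4 rows to be as restricted as miR-122-5p. It was read in 2 of the 14 other libraries, with about 2 reads in the runt heart (0.64 RPM, or 0.354% of its liver level) and about 1 in tongue (1.27 RPM, or 0.702%). It was listed at 0 in runt testis library 2. At the percentage of miR-122-5p there it would have been at 2.74 RPM. At that depth 3 reads, taken as a rough limit for a count of 0, were worth 2.62 RPM. That limit is not the exact Poisson interval used elsewhere, and it lies too close to 2.74 RPM to exclude that level. These read numbers are too small to show whether both rows keep one ratio outside liver.

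**Figure D4:**
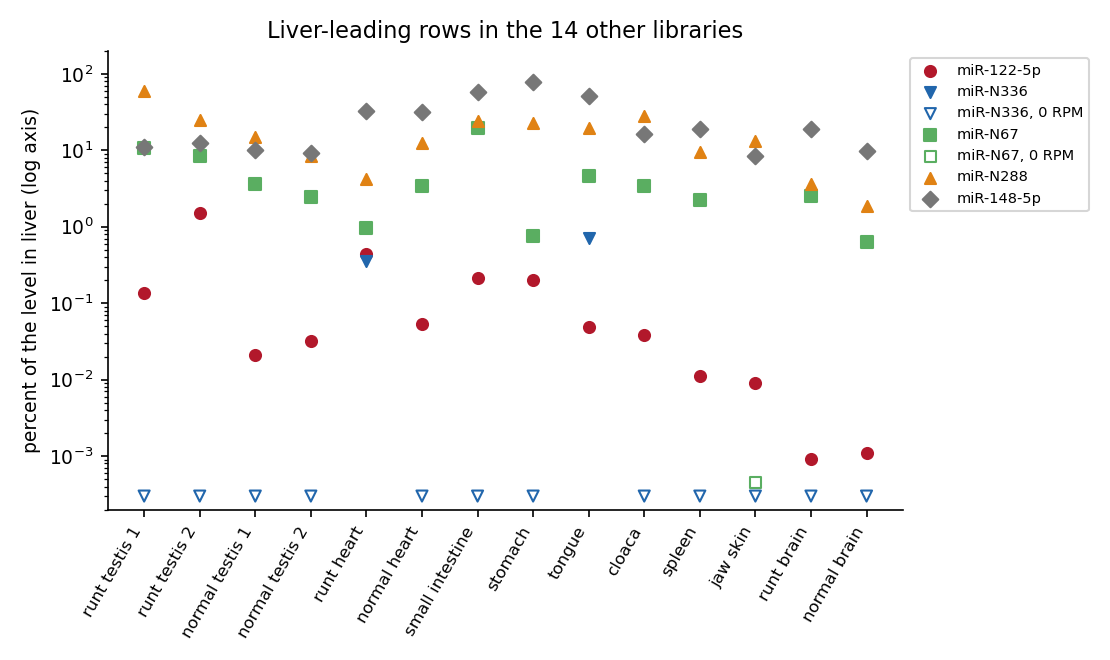
Level of miR-122-5p and the 4 other rows with the largest liver fold in each of the 14 other libraries, as a percentage of the level in liver (log axis); open symbols at the bottom mark rows listed at 0 RPM. miR-122-5p ranges from 0.00091% in the runt brain to 1.51% in runt testis 2, below miR-148-5p and miR-N288 in each library, and miR-N336 is above 0 only in the runt heart and tongue.

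Testis, heart and brain have more than 1 library and allow tests, made with limma on log2(scaled RPM + 1) over the 319 rows with Benjamini-Hochberg adjustment over all of them. The 3 contrasts share libraries. miR-122-5p was higher in testis than in brain, with 285.9 and 3152 RPM in runt and 43.3 and 66.8 RPM in normal testis libraries, against 1.90 and 2.31 RPM in the brain libraries. Every testis library was above both brain libraries. The log2 fold was 6.32 (SE 1.36, adjusted p = 0.00292), where the median row was at 0.45. Of the 319 rows 28.5% were called higher and 16.9% lower in testis, and miR-122-5p was the 13th by log2 fold. The call held in each of 13 alternative settings, with adjusted p of 0.00108 to 0.0469.

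Heart was also above brain, with 919.6 RPM in the runt and 112.6 RPM in the normal hatchling, against 1.90 and 2.31 RPM. The log2 fold was 6.76 (SE 1.57, adjusted p = 0.0115) and the 6th largest of 319, where 8.78% of rows were called higher in heart and the median row was at 0. The call was lost without the runt heart library (adjusted p = 0.0743), without the runt or the normal brain library (0.111 and 0.0513), and with a pseudocount of 10 (0.0565).

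Testis and heart did not differ past the threshold. The log2 fold of testis over heart was -0.44 (SE 1.36, 95% interval -3.45 to 2.57, adjusted p = 0.861), where 23.8% of rows were called higher and 10.7% lower in testis (34.5% in either direction) and the median row was at 0.36. The 4 testis values span both heart values. The sign of the fold turned without normal testis library 1 (0.38) or the runt heart library (1.12), so no direction can be given. In bulk tissue a lower level may reflect fewer cells that hold the miRNA or less of it per cell, which cannot be told apart. The p-values here measure only the spread between these libraries, which may be partly technical. The tissue contrasts held no term for size class, so the gap between runt and normal libraries is part of that spread.

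The study also set runts beside normal hatchlings. In testis both runt libraries (285.9 and 3152 RPM) were above both normal ones (43.3 and 66.8 RPM), with runt library 1 at 4.28-fold the higher normal library and runt library 2 at 47.2-fold. In heart the runt library (919.6 RPM) was 8.16-fold above the normal one (112.6 RPM). In brain the runt library (1.90 RPM, interval 0.517 to 4.86) and the normal one (2.31 RPM, interval 1.15 to 4.14) overlap within counting error. Runt testis library 2 itself lay 11.0-fold above runt testis library 1, so the runt values in testis differ by more among themselves than the lower of them differs from the normal libraries.

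Such a separation was common in this table. Of the 293 rows that reached 10 RPM in 2 or more of these 8 libraries, 42.3% had both runt testis libraries above both normal ones, 45.4% were higher in the runt heart, and 17.7% met both conditions. miR-N444 took 29.0% and 26.5% of the RPM total in the runt testis libraries and 34.4% and 60.0% in the normal ones. RPM is a share of that total, so levels were also compared without that row. With miR-N444 taken out and the other listed reads scaled to 1000000, miR-122-5p was at 731.3 and 6946 in the runt and 121 and 309.9 in the normal testis libraries, and at 1813 in the runt and 207.2 in the normal heart. The groups still did not overlap in testis, and the closest pair was 2.36-fold apart. On that scale 34.9% of rows separated in the same way in testis, and 14% did so and were also higher in the runt heart. On RPM divided by the scaling factor of each library, the runt testis libraries were at 260.1 and 2219 and the normal ones at 43.2 and 132.3, 1.97-fold apart at the closest, and 30.4% of rows separated so in testis.

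**Figure D5:**
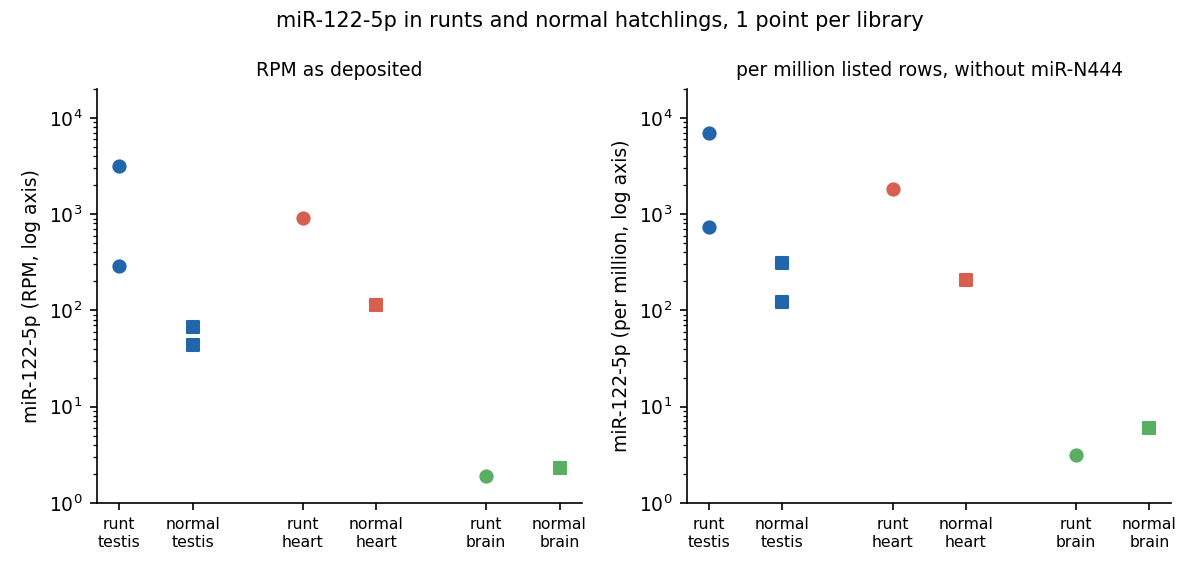
Level of miR-122-5p in runts (circles) and normal hatchlings (squares) in testis, heart and brain, 1 point per library, as RPM (left) and scaled to the listed reads without miR-N444 (right), both on log axes. Runts lie above normal hatchlings in testis (285.9 and 3152 against 43.3 and 66.8 RPM) and heart (919.6 against 112.6 RPM), and the brain libraries lie together near 2 RPM.

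Over the 8 libraries with tissue as a term, limma gave a log2 fold of runt over normal of 2.24 (SE 0.90, 95% interval 0.26 to 4.22), the 3rd largest of 293 rows. The unadjusted p was 0.0301 and the adjusted p 0.591, so the difference did not pass. Of the 293 rows 0% passed in limma in either direction, and 20 had an unadjusted p under 0.05. The adjusted p was 0.0736 to 0.997 over 14 alternative settings, and the log2 fold was 1.39 without runt testis library 2. Fitted by tissue, the log2 fold was 3.30 in testis (SE 1.30, adjusted p = 0.190), 3.20 in heart and -0.84 in brain. The difference between testis and brain, 4.15 (adjusted p = 0.384), did not pass either, and that between testis and heart was 0.10 (95% interval -6.45 to 6.65). These fits by tissue take their spread from testis alone.

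The 11 rows of liver-abundant families, which leave out miR-122-5p, summed to 56515 and 53737 RPM in the runt testis libraries. In the normal ones they summed to 55859 and 47437 RPM. In heart they summed to 127029 RPM in the runt and 76680 RPM in the normal library. miR-26a-5p and miR-148-5p made up most of each sum. Some markers of other cell types differed between the testis libraries. Summed striated muscle and heart rows were at 3520 and 717.5 RPM in runt and 210.3 and 87.9 RPM in normal testis libraries, and brain and neuron rows at 3436 and 8822 RPM in runt and 2077 and 1094 RPM in normal ones. Most of the brain and neuron sum came from miR-129-5p and miR-128-1-5p. miR-9-5p of that list was at 103.4 and 116.5 RPM in runt and 160 and 67.9 RPM in normal testis libraries. miR-124-5p was at 2.69 and 2.62 RPM in runt and 0 and 0 RPM in normal ones, which is few reads. miR-132 was at 181 and 664.2 RPM in runt and 128.7 and 58.1 RPM in normal testis libraries. miR-137-5p was at 4.48 and 13.98 RPM in runt and 0 and 0 RPM in normal ones. For miR-138-5p the groups overlapped, at 83.4 and 198.4 RPM in runt and 196.7 and 64.7 RPM in normal ones. miR-202-5p of the gonad was lower in runts, at 127.3 and 110.1 RPM in runt testis libraries against 434.9 and 338.9 RPM in normal ones. miR-144-5p, the 1 matched row of 3 red blood cell families, was at 6.27 and 2.62 RPM in runt and 1.2 and 1.02 RPM in normal testis libraries. In these libraries 1 read was worth 0.51 to 0.90 RPM, so these values rest on few reads. miR-126-5p of endothelium was at 1514 and 1523 RPM in runt and 2343 and 2065 RPM in normal ones. The 2 gut epithelium rows, miR-194 and miR-215-5p, summed to 233 and 190.5 RPM in runt and 40.3 and 401.5 RPM in normal testis libraries, and the 4 white blood cell rows to 3963 and 4282 RPM in runt and 4392 and 2469 RPM in normal ones. miR-145 of smooth muscle was at 12933 and 18828 RPM in runt and 13465 and 6383 RPM in normal testis libraries, and the 2 rows of epithelium and skin summed to 54.7 and 40.2 RPM in runt and 48.7 and 12.2 RPM in normal ones.

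In heart, most marker lists stood higher in the runt library, as miR-122-5p did, and so did 45.4% of the 293 rows. Whether these lists rose more often than rows at large was not tested. For the neuron markers the total was 2349 RPM in the runt against 1201 RPM in the normal library. For the skin markers it was 23.6 against 8.05 RPM. miR-126-5p was at 11283 RPM in the runt and 3049 RPM in the normal library, miR-145 at 15606 RPM in the runt and 3800 RPM in the normal library, and miR-144-5p at 32.8 RPM in the runt and 8.05 RPM in the normal library. The gut epithelium rows summed to 117.8 RPM in the runt and 3.45 RPM in the normal library, where miR-215-5p was at 0, and the white blood cell rows to 4112 RPM in the runt and 2286 RPM in the normal library. The 8 striated muscle and heart rows, which define the tissue, summed to 62118 RPM in the runt and 64459 RPM in the normal library. That sum hides rows that went opposite ways. The miR-133 rows were lower in the runt, with miR-133-5p at 27204 RPM against 37916 RPM in the normal library. The other rows were higher there, with miR-499-3p at 15279 against 6319 RPM, miR-1-1-5p at 4626 against 609.5 RPM and miR-1b-5p at 903.3 against 155.5 RPM. Some of these rows share reads, so they are not independent. Whether a shared read is split between its rows or repeated in each is not stated. The part of these marker levels in the difference of miR-122-5p was not tested. Among the 3 tissues, each held the highest summed level of its own markers, but not all of these were confined to it. By row, miR-206 of the striated muscle and heart list was at 157.75 RPM in runt testis library 1. In heart it was at 1.06 RPM in the runt and 0 RPM in the normal library. The striated muscle rows summed to between 87.9 RPM and 3520 RPM over the testis libraries. The neuron rows together reached 79306 RPM in the runt brain and 78409 RPM in the normal one, against 8822 RPM in runt testis library 2. miR-202-5p was at 0 in both heart libraries and at most 0.21 RPM in brain.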

How the data were processed

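Small RNA libraries were made from flash-frozen tissue with a kit for Illumina sequencing, per the labels. The table's header names the quantifier of miRDeep2 (2_0_0_8); bedtools 2.26.0, Bowtie 1.2.0 and bcl2fastq 2 stand in the submitters' processing notes with no role named. No build of the genome is named in the sources used here. The first line of the table speaks of counts, but the deposited values are decimal and were taken here as RPM. The rows of a library add up to 55.3% to 81.5% of 1000000, which stays within such a total but does not by itself fix the scale. The total by which the authors divided is not stated. The table has 1 more value column, left out because no sample carries its name. The sequences of the rows were not used here, and arm names are those of the table.

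The worth of 1 read in each library was taken from the steps between low values, of which 89.1% to 94.2% were whole within 0.1 reads; the rest are fractions, so the values were not treated as counts. Tests used limma 3.58.1 in R 4.3.3 with a variance trend, on log2(RPM / scaling factor + 1), where the pseudocount of 1 understates changes of low rows. Scaling factors were unweighted trimmed means (30% of the log ratios and 5% of the levels trimmed). A row entered a fit if it reached 10 RPM in 2 or more of its libraries. The tissue model held all 15 libraries; runts and normal hatchlings were compared over the 8 libraries of testis, heart and brain in a model that also held tissue. Tests were two-sided with a threshold of 0.05. The fits were also run on simulated independent normal values with known changes, which checks the code and not the assumptions made about these libraries. Python 3.11.15 with SciPy 1.17.1 gave the intervals. The member, the lists and the comparisons were chosen with earlier results of these data known. Named rows were those of the fixed lists, the 5 with the largest liver fold at 100 RPM or more in liver, and the 5 most like miR-122-5p over tissues.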

Additional observations from a re-analysis of the deposited data

Results flagged for a closer look

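Among the 4 testis libraries, runt library 2 lay far from the other 3 for miR-122-5p, at 3152 RPM. Its gap to the next library, runt library 1 at 285.9 RPM, was 0.922 of the whole range, above Dixon's 95% critical value for 4 samples. The same library stood apart when levels were scaled to the listed reads without miR-N444, at 6946, with a gap of 0.911 of the range. Of the 27 sets of 4 testis values examined, which include the liver families, the liver-leading rows and the marker sums, these 2 were past the critical value. Chance flags about 1 in 20 groups if values are normally distributed, which was not checked. The rule was applied to values without logs and pooled runt with normal libraries. The log scale used in the tests was not examined in this way. Both are the same miRNA on different scales. In that library the brain and neuron rows summed to 8822 RPM, against 3436 RPM in runt library 1 and 2077 and 1094 RPM in the normal libraries. Most of the 8822 RPM came from miR-129-5p (5228 RPM) and miR-128-1-5p (2532 RPM). Among the 4 testis libraries, miR-132 (664.2 RPM) and miR-137-5p (13.98 RPM) of the same list were also highest there. miR-138-5p was at 198.4 RPM there, against 196.7 RPM in normal library 1. miR-9-5p was at 116.5 RPM there, between the 160 and 67.9 RPM of the normal libraries, and its second row lay likewise. miR-124-5p was at 2.62 RPM there and 2.69 RPM in runt library 1.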

How the results depend on the processing

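The level of miR-122-5p in liver was 208151 RPM as deposited, 269759 when scaled to the listed reads, 322370.2 when scaled to them without miR-N444, and 210709.5 with the scaling factors. Its fold over the mean of the other tissues, 753 as reported, was 665 on the listed reads, 615 without miR-N444, 790.4 with the scaling factors and 2056 against the median, and 648 to 1080 when each testis, heart or brain library was left out, with the highest value without runt testis library 2. The log2 fold of testis over brain was 4.42 to 7.13 over 13 settings and stayed past the threshold in each. That of heart over brain fell to 4.82 with a pseudocount of 10, past the threshold no longer, and was 5.19 to 8.32 when a library was left out. That of testis over heart was -2.00 to 1.12 when a library was left out. Leaving out a heart or brain library leaves that tissue with 1, which is then assumed to vary like the others. The log2 fold of runt over normal was 1.39 to 3.27 when a library was left out, with the lowest value without runt testis library 2, and 3.27 over testis and heart alone, a setting chosen after seeing the data. Rows called in testis against brain were 145, 221 without the filter and 88 to 148 without a library, the lowest without the runt brain. Those in heart against brain were 71, with 19 to 62 without a library, of which 19 without the runt brain and 44 without the normal brain or the normal heart. Those in runts against normal hatchlings were 0, 1 without scaling, 3 in testis alone and 0 to 7 without a library, of which 7 without either heart library. The 5 rows most like miR-122-5p shared 2 with the list made without liver and 3 with that at a pseudocount of 10. No paired analysis was possible because the labels used here do not say which libraries come from the same animal. Libraries of different tissues may share an animal, and the tests treat them as independent. Counting error was widest where miR-122-5p rested on few reads, about 4 in the runt brain, 10 in jaw skin, the shallowest library, and 11 in the normal brain, the deepest.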

Other observations

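Over the 9 tissues without liver, the rows whose log2 level was most like that of miR-122-5p were miR-N440 (r = 0.79), miR-133-5p (0.72), miR-133c-5p (0.72), miR-N525 (0.71) and miR-N288 (0.71). These are descriptions over 9 tissue means, and miR-133-5p and miR-133c-5p, of a family known from striated muscle, share reads. In liver itself miR-133-5p was at 46.6 RPM and ranked the 9th of 10 tissues.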
